A study of Mus musculus with 7 samples.

Results

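The primitive streak and mesoderm regulators Eomes, T, Mixl1, Gsc, Lhx1, Evx1, Mesp1, Mesp2 and Tbx6 were examined through the accessible chromatin sites around them. A site was taken for a gene when its midpoint lay within 50 kb of the gene's transcription start site (TSS) in the curated RefSeq annotation of mm10. This gave 44 of the 75880 sites listed for the experiment, and all 9 genes had at least 1 site. Mesp1 and Mesp2 are neighbours and shared 5 sites, which are counted once. The site nearest the limit inside it, at Mixl1, had a log2 difference of -1.12 between Smad2/3-deficient and wildtype cells, and the one nearest outside it, at Gsc and 50056 bp, one of -0.25.

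Open chromatin was profiled by ATAC-seq, a method in which the Tn5 transposase inserts sequencing adapters into open DNA, in mouse epiblast-like cells (EpiLCs). EpiLCs are made in culture from embryonic stem cells (ESCs) and stand for the epiblast just before gastrulation. WT EpiLCs came from the CCE ESC line and Smad2/3 double knockout (DKO) EpiLCs from clone KT15.1F6, both of 129/Sv//Ev background. The DKO clone is homozygous for the Smad2 tm1Rob allele and has the promoter and first exon of Smad3 deleted with a Cas9 nickase. Both genotypes were cultured for 48 h, to day 2, with 20 ng/ml activin A and 12 ng/ml Fgf2, after growth as ESCs with Mek and Gsk3 inhibitors and LIF. Each genotype had 3 separate differentiations from 1 clone, so genotype and clone cannot be told apart. Tagmented genomic DNA of WT EpiLCs served as a control in peak calling and entered no comparison.

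Nodal and activin act through receptors that phosphorylate Smad2 and Smad3, which enter the nucleus with Smad4 and reach DNA together with partners such as FoxH1. In the embryo this pathway is required for the primitive streak, the structure through which epiblast cells leave to form mesoderm and definitive endoderm. Eomes, T, Mixl1, Gsc and Lhx1 are classical Nodal and activin responsive genes of the streak and the organizer, while Mesp1, Mesp2 and Tbx6 mark nascent, segmenting and paraxial mesoderm.

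Accessibility at a site is given as its concentration, the log2 of the mean normalized read number of the 3 libraries of a genotype, and the DKO minus WT concentration is given as the difference. The table used holds 1 concentration per genotype and none per library, so no value below carries a standard deviation and no difference was tested. The depth of each library is unknown, and so is the spread between differentiations. In such bulk libraries, fewer cells with an open site and less opening per cell cannot be told apart. A difference beyond 1.5-fold (0.585 on the log2 scale) is described as past 1.5-fold, which is a statement of size only.

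The deletion itself was visible at Smad3. The site at its promoter, 221 bp from the TSS, had a concentration of 5.42 in WT and -0.10 in DKO EpiLCs, which is the lowest DKO concentration listed. The Smad2 promoter site had 8.35 in WT and 8.28 in DKO EpiLCs. Promoter concentrations in WT EpiLCs overlapped between the marker lists of the cell types that the culture could hold, although their medians differed. A promoter site (midpoint within 1 kb of a TSS) was listed for 7 of 9 primed epiblast genes, with Otx2 and Tdgf1 lacking one, and for 7 of 8 naive genes, with Prdm14 lacking one. Of the extra-embryonic endoderm, trophoblast and neural genes, 4 of 4, 3 of 3 and 3 of 3 had one. The WT medians of these promoter concentrations were 6.93 for primed epiblast, 7.42 for naive, 5.81 for extra-embryonic endoderm, 5.53 for trophoblast and 5.91 for neural genes. Their WT ranges were, in that order, 5.66 to 7.71, 4.57 to 7.83, 3.42 to 7.61, 4.55 to 7.24 and 4.14 to 6.54. The medians of the differences per gene were, in that order, 0.05, 0.07, 0.01, -0.26 and -0.19.

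The sequences of the distal elements with lower accessibility at Gsc are shown first because they were past 1.5-fold at the locus with the lowest ratio of summed accessibility. The promoter of Eomes follows as the one with the highest concentration, with those of T and Lhx1, whose accessibility was higher in DKO EpiLCs. All are mm10 sequence, the distal windows of at most 300 bases centred on the site. Promoters are the bases within 250 bp before the RefSeq TSS that a listed site covered. Capitals mark exact matches on either strand to CAGAC, the short Smad-binding element, to TGTGGATT for FoxH1 and to GGATTA for Otx2. The Gsc element at low concentration and the CAGAC search were chosen after their values were seen.
Gsc, upstream site (chr12:104507976-104508275, plus strand): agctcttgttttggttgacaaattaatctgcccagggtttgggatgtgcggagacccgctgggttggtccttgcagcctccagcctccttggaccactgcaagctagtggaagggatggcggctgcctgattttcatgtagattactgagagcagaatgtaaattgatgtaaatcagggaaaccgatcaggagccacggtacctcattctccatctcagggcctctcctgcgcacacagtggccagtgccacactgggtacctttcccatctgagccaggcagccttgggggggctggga
Gsc, downstream site at low concentration (chr12:104459246-104459545, plus strand): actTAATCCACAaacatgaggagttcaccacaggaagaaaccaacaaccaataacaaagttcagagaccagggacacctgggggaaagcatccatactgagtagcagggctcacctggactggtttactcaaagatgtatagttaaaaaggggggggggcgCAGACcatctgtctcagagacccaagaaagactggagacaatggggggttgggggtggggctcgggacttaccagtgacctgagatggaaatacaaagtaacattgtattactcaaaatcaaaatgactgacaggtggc
Gsc, distant downstream site (chr12:104433176-104433475, plus strand): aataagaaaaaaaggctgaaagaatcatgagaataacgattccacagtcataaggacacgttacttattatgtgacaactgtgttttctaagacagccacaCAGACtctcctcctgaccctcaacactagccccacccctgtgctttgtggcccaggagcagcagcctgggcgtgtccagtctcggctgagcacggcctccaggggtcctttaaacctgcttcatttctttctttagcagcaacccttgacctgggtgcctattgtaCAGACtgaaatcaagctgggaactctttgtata
Eomes promoter (chr9:118477939-118478188, plus strand): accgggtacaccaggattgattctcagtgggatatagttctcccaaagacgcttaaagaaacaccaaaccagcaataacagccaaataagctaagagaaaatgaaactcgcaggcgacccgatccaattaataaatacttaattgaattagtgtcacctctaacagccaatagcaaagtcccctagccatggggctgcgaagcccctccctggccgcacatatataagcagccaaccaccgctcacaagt
T promoter (chr17:8434173-8434390, plus strand): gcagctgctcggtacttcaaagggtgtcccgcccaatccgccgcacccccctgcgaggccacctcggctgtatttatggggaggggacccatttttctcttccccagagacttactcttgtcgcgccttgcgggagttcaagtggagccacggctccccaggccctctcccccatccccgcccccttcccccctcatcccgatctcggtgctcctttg
Lhx1 promoter (chr11:84525535-84525784, minus strand): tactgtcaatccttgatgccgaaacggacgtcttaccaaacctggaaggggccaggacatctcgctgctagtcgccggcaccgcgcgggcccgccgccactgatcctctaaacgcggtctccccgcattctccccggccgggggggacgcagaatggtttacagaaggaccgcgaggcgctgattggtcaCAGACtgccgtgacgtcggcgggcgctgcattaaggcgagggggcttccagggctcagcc

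The low-concentration Gsc element carried TAATCCACA, in which the complements of the FoxH1 and Otx2 strings overlap, near the edge of the printed window and outside the listed site. Among the 44 windows it was the only one with the FoxH1 string, which 1.07% of all windows held. The distant downstream Gsc element held 2 CAGAC matches and its upstream element none of the strings searched. Of the promoter bases printed, only those of Lhx1 had a match, a single CAGAC. The windows of 300 bases centred on the promoter sites of Eomes and T, which differ from the printed bases, each held 1 CAGAC. Over all sites, 52.5% of windows had at least 1 CAGAC and 17.9% at least 2, against 28 and 10 of the 44, so a single CAGAC is common everywhere. In promoter windows of 250 bases, 41.0% held at least 1.

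The other strings searched were found at few of the 44 sites. GGATTA was found in 5 of the 44 windows and in 8.71% of all windows. CTTTGAT (Tcf/Lef) was found in 3 of the 44 and in 4.37% of all windows, and ATGCAAAT (octamer) in 1 of the 44 and in 3.16%. The palindrome GTCTAGAC (Smad) and AGGTGTGA (T-box) were in none of the 44 windows, against 0.224% and 1.23% of all windows. The absence of these letters from a window says nothing of the factor. In promoters of 250 bases, 0.677% held TGTGGATT, 6.36% GGATTA, 2.89% CTTTGAT, 1.54% ATGCAAAT, 0.165% GTCTAGAC and 0.981% AGGTGTGA.

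Accessibility was lower in Smad2/3 DKO than in WT EpiLCs at more of the 44 sites than it was higher, as it was over all listed sites. The imbalance among the 44 lay at Eomes and Gsc. The difference was below 0 at 28 sites and above 0 at 16, and its median was -0.26, with quartiles of -0.49 and 0.21. Over all listed sites the median was -0.08, and over those within 50 kb of any curated TSS -0.05. The share below 0 was 63.6% at these genes and 57.4% over all sites, so the count of lower sites was near the background and is not a result about these genes. Eomes and Gsc held 15 of the 28 lower sites and 1 of the 16 higher ones, with a median of -0.34. At the other 7 genes, a split made after the values were seen, 13 sites were lower and 15 higher, with a median of 0.06.

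Few sites at these genes were past 1.5-fold. Lower accessibility past 1.5-fold was found at 7 of the 44 sites, which is 15.9%, where 16.0% of all sites were lower by that much. Higher accessibility past 1.5-fold was found at 2 sites, or 4.55%, where 8.51% of all sites were higher. Over sites within 50 kb of any curated TSS these shares were 12.7% lower and 7.96% higher. The members were therefore close to the background for lower sites, and their count of large differences is not a result about them.

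The large differences were mostly at weak sites. Among the 35 stronger ones, whose concentration over both genotypes reached 4, or 16 normalized reads, 3 were lower past 1.5-fold and 0 were higher, against 12.4% and 5.40% of all sites at that level. These 3 lay at Mixl1 and Gsc. Among the 9 weaker sites 4 were lower and 2 higher, where 29.8% and 20.5% of all such sites were. The spread of differences over all sites narrowed with concentration: the 5th and 95th percentiles were -2.64 and 2.09 between concentrations of 2 and 3, -1.14 and 0.78 between 4 and 5, and -0.72 and 0.45 between 6 and 7.

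**Figure D1:**
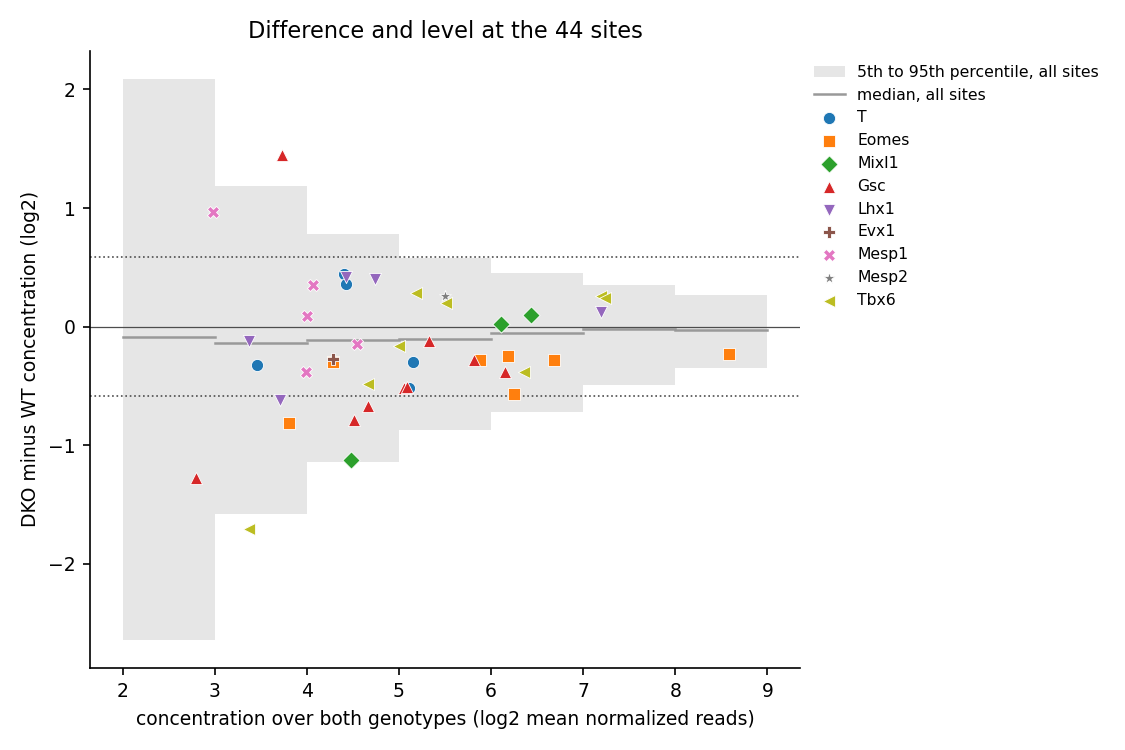
The horizontal axis gives the concentration over both genotypes (log2 mean normalized reads) and the vertical axis the DKO minus WT difference (log2) of each of the 44 sites, with 1 symbol per gene. Grey blocks span the 5th to 95th percentile of all listed sites in each concentration bin, grey lines their medians, and dotted lines 1.5-fold. Only the Tbx6 window site at -1.71 and the Gsc site at 1.45 lie outside their blocks, while the Mixl1 site at -1.12 lies just inside.

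Lower accessibility was found mainly away from promoters, and over all sites too the share of lower sites was larger there. Of the 28 sites over 1 kb from any TSS, 22 were lower, with a median of -0.29, and all 9 sites past 1.5-fold were among them. The one with the largest difference, in the Mapk3 intron, was only just past this limit, 1019 bp from the Mapk3 TSS. Over all sites more than 1 kb from a TSS, 59.7% were lower and the median was -0.12. Past 1.5-fold, 18.9% of these were lower and 9.70% higher, against 7 and 2 of the 28. Of the 16 sites within 1 kb of a TSS, 6 were lower, where 48.2% of all promoter sites were. None of the 16 was past 1.5-fold, and their median was 0.11, against 0.01 over all promoter sites. Past 1.5-fold, 4.17% of all promoter sites were lower and 3.69% higher, so 0 of 16 is near the background. The promoter sites of the listed genes themselves, 7 sites with the Lhx1 site also at the start of the antisense transcript Lhx1os, had a median of 0.02. The other 9 belonged to neighbouring genes and had a median of 0.12. Base composition also differed from the rest of the table, with a median GC content of 58.2% at the 44 sites and 50.6% over all sites, and its part in these differences was not tested.

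**Figure D2:**
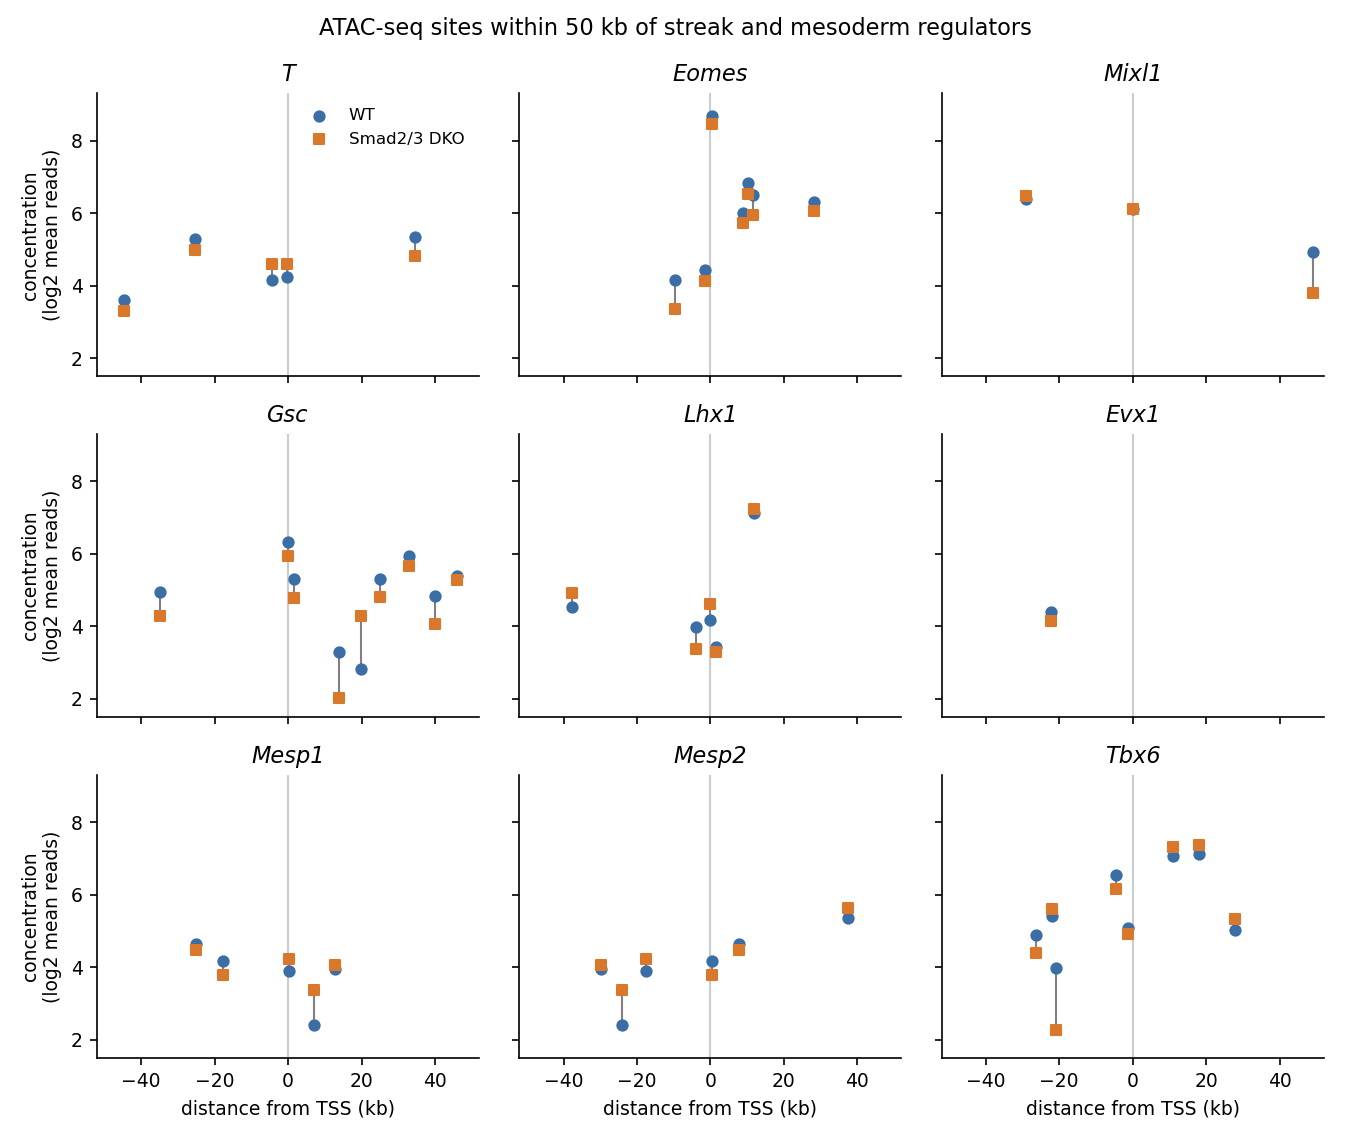
Each panel shows 1 gene, with the distance of each site from the TSS (kb, negative upstream) on the horizontal axis and the concentration (log2 mean normalized reads) on the vertical axis. Circles are WT and squares Smad2/3 DKO EpiLCs, each the authors' mean over 3 libraries, and a grey line joins the values of a site. All 7 Eomes sites and 8 of 9 Gsc sites have the DKO square below the WT circle, while at Lhx1, Mesp1, Mesp2 and Tbx6 both orders occur.

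Eomes, a T-box factor needed for definitive endoderm and for the exit of mesoderm from the streak, was, of the loci with more than 1 site, the one at which accessibility was lower at every site. The gene lies on the plus strand of chromosome 9 from 118478189 to 118486132, and 7 sites lay within 50 kb of its TSS. All 7 differences were negative, from -0.81 to -0.23, with a median of -0.28. Genes with at least 7 sites within 50 kb, a group set after these values were seen, had every site lower in 186 of 6065 cases, or 3.07%. That group also holds genes with more than 7 sites, and neighbouring genes in it can share sites. The share is therefore not that among genes with 7 sites, and the cases are not separate. In the flanks, from 50 kb to 1 Mb from the TSS, 70.1% of 67 sites were lower and the median was -0.15, so lower accessibility was not particular to the 50 kb window.

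The Eomes promoter site had the highest concentration of the 44, and with 171 reads per kb in WT EpiLCs it was below the Aatf promoter (219) and the Gsc site 32881 bp downstream (177) once site length was taken into account. It spans 118477440 to 118479860, is 2420 bp wide, and its midpoint is in the exon outside the coding sequence, 461 bp past the TSS. Its concentration was 8.69 in WT and 8.46 in DKO EpiLCs, a difference of -0.23. Of all sites with a concentration between 8 and 9, 14.4% had a difference at least as low. The printed Eomes promoter, with a GC content of 46.4%, is poorer in GC than those of T and Lhx1 at 64.2% and 64.8%.

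Downstream of Eomes, 3 intergenic sites 8811 to 11601 bp past the TSS, beyond the end of the gene, formed a cluster of strong elements. The farthest of them, from 118489520 to 118490060, had 6.51 in WT and 5.94 in DKO EpiLCs. Its difference of -0.57 was just short of 1.5-fold, and 8.61% of the sites of like concentration were at least as low. The next site inward, at 10301 bp, had 6.82 and 6.54, and the innermost, at 8811 bp, had 6.01 and 5.73, so both differed by -0.28. The only Eomes site past 1.5-fold was weak: 9764 bp upstream (118468300 to 118468550, intergenic), it had 4.16 in WT and 3.35 in DKO EpiLCs, a difference of -0.81, with 20.3% of sites of like concentration at least as low. Another upstream site, 1559 bp before the TSS, had 4.42 and 4.12. The last of the 7, 28166 bp downstream, is the promoter of Golga4, a Golgi protein gene, with 6.30 and 6.05. Summed over its sites, Eomes had 129 normalized reads per kb of site in WT and 105 in DKO EpiLCs, a log2 ratio of -0.29, which was -0.17 in a window of 100 kb.

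T, which encodes the T-box factor Brachyury required for posterior mesoderm and notochord, differed in direction between its near and distant sites. T lies on the plus strand of chromosome 17 from 8434423 to 8442496 and had 5 sites, none past 1.5-fold. The promoter site (8434050 to 8434390, centred 203 bp upstream) had 4.24 in WT and 4.60 in DKO EpiLCs, a difference of 0.36. A further intergenic site 4373 bp upstream had 4.16 and 4.60, a difference of 0.44. These are the only T sites within 25 kb, and both were higher in DKO EpiLCs. Of sites of like concentration, 18.3% were at least as high as the promoter site and 14.6% as the further one.

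The 3 more distant sites were lower. The intergenic site 34497 bp downstream (8468720 to 8469120) had the highest WT concentration of the locus, 5.34, with 4.82 in DKO EpiLCs, a difference of -0.52. Upstream, sites within introns of the neighbouring gene T2 at 25383 and 44793 bp had 5.29 and 3.61 in WT and 4.99 and 3.29 in DKO EpiLCs. In the order given, 15.3%, 30.6% and 41.4% of sites of like concentration were at least as low as these 3 sites. Both upstream sites are nearer to the TSS of Gm16702 than to that of T. The one at 44793 bp lies 162 bp from the Gm16702 TSS and so counts as a promoter site of that gene. The distant sites outweighed the near ones in normalized reads, with 91.84 in WT and 69.81 in DKO EpiLCs against 36.77 and 48.50. The sum over the locus was therefore lower, at 67.7 reads per kb in WT and 62.3 in DKO EpiLCs, a log2 ratio of -0.12. With a window of 25 kb the ratio was 0.40, and over the sites with T as the nearest gene it was -0.01. In the flanks to 1 Mb, 45.0% of 20 sites were lower and the median was 0.07.

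Tbx6, a T-box factor of presomitic and paraxial mesoderm, sits in a gene-dense stretch of chromosome 7 (126781483 to 126785548, plus strand), and only 1 of its 8 sites had Tbx6 as the nearest gene. That site, 1248 bp upstream and in an exon of Ypel3, had 5.08 in WT and 4.92 in DKO EpiLCs, a difference of -0.16. No listed site lay within 1 kb of the Tbx6 TSS. The largest difference among all 44 sites was here: a weak site in an intron of the kinase gene Mapk3 (126760550 to 126760740) had 3.99 in WT and 2.28 in DKO EpiLCs. In normalized reads this is 15.9 against 4.86, a difference of -1.71, and 4.01% of sites of like concentration were at least as low. Promoter sites of Aldoa, Ppp4c and Mapk3 were slightly higher, by 0.24, 0.26 and 0.20, and that of Ypel3 lower, at -0.38. The Aldoa promoter had the highest concentrations, 7.12 in WT and 7.36 in DKO EpiLCs. An intergenic site 27762 bp downstream (126809050 to 126809440) had 5.04 and 5.32, the largest positive difference of the locus at 0.28. The largest difference among the stronger sites was at 126754890 to 126755240, intergenic and 26418 bp upstream, with 4.88 and 4.40, a difference of -0.48. The sum over the 8 sites was 130 and 135 reads per kb, a log2 ratio of 0.06, while the site nearest to Tbx6 had -0.16.

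Mixl1, a paired-like homeobox factor of the streak, had a promoter of nearly equal accessibility in both genotypes and, far from it, the site with the lowest difference among those with a concentration of at least 4. Mixl1 lies on the minus strand of chromosome 1 from 180693043 to 180697034. Its promoter site (180696550 to 180697440, centred 39 bp past the TSS) had 6.10 in WT and 6.12 in DKO EpiLCs. The promoter of Acbd3, 29056 bp upstream of the Mixl1 TSS, had the highest WT concentration of the locus, 6.38, with 6.48 in DKO EpiLCs.

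The site at the downstream edge of the window, in an intron of Lin9, had the largest difference of the locus. It had 4.93 in WT and 3.81 in DKO EpiLCs, a difference of -1.12, or 30.5 against 14.0 normalized reads. A difference at least as low was found at 5.23% of sites with a concentration between 4 and 5. Its nearest TSS is that of Lin9 rather than Mixl1. Summed over its 3 sites, Mixl1 had 101 reads per kb in WT and 96.0 in DKO EpiLCs, a log2 ratio of -0.08, which was 0.02 in a 25 kb window that left the Lin9 site out.

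Gsc, the homeobox repressor that marks the organizer and anterior streak, had the most sites and the lowest DKO to WT ratio of summed accessibility of the 9 genes. Gsc lies on the minus strand of chromosome 12 from 104471209 to 104473236, and 8 of its 9 sites were lower in DKO EpiLCs, with a median of -0.51. The sum over the sites was 84.6 reads per kb in WT and 66.3 in DKO EpiLCs, a log2 ratio of -0.35. In the flanks to 1 Mb, 80.0% of 60 sites were lower and the median was -0.25. Accessibility was therefore lower across the wider region too, and its part in the Gsc values was not tested.

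At the Gsc gene itself, the promoter site (104472810 to 104473640, centred 11 bp past the TSS) had 6.33 in WT and 5.95 in DKO EpiLCs, a difference of -0.38. It had the highest concentration of the locus and, of the promoters of the listed genes, shared the lowest difference with that of Mesp2. Per kb of site, its 96.9 reads in WT EpiLCs were below those of the sites 32881 and 46086 bp downstream, 177 and 140. A site over the coding sequence, 1596 bp past the TSS, had 5.30 and 4.78, a difference of -0.52.

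Both Gsc elements past 1.5-fold with a concentration of at least 4 lay far from the gene. At 4.66 upstream and 4.51 downstream over both genotypes, they were below the median concentration of all sites, 5.00. The upstream element (104507920 to 104508330, intergenic, 34889 bp) had 4.95 in WT and 4.28 in DKO EpiLCs, a difference of -0.67. The downstream element (104433160 to 104433490, intergenic, 39911 bp) had 4.85 and 4.06, a difference of -0.79, and is nearer to the TSS of Serpina3n, a protease inhibitor gene. Of sites of like concentration, 15.7% and 11.7% had differences at least as low.

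Between the gene and the distant downstream element lay 2 weak sites that differed in opposite directions. The site at 104459320 to 104459470, 13841 bp downstream, had 3.30 in WT and 2.02 in DKO EpiLCs, or 9.85 and 4.06 normalized reads, and 20.0% of sites of like concentration were at least as low. The site at 104453140 to 104453460, 19936 bp downstream, had 2.83 and 4.28, or 7.11 and 19.4 reads. Its difference of 1.45 was the largest positive one of the 44, and 2.81% of sites of like concentration were at least as high. The remaining downstream sites, at 24921, 32881 and 46086 bp, differed by -0.51, -0.28 and -0.12.

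Lhx1, a LIM homeobox factor of the anterior streak and its derivatives, was higher at the promoter and lower at a weak site close by. The gene lies on the minus strand of chromosome 11 from 84517975 to 84525534 and had 5 sites. The promoter site (84525410 to 84525830, centred 86 bp upstream of Lhx1 and 40 bp from the Lhx1os start) had 4.19 in WT and 4.61 in DKO EpiLCs, a difference of 0.42. A difference at least as high was found at 15.5% of sites of like concentration. The only site past 1.5-fold, in an intron of Lhx1os 3806 bp upstream (84529210 to 84529470), had 3.99 and 3.37, a difference of -0.62, with 27.5% of sites of like concentration at least as low. A distal intergenic site 37571 bp upstream had 4.53 and 4.93, a difference of 0.40, and a site over the coding sequence 1394 bp past the TSS had 3.42 and 3.30. The promoter of Aatf, 11934 bp downstream, had the highest WT concentration, 7.13, with 7.25 in DKO EpiLCs, and dominated the sum of 110 against 120 reads per kb. That sum had a log2 ratio of 0.13. It was 0.14 over the 4 sites nearest to Lhx1 or Lhx1os, and -0.12 at the weak coding-sequence site, the only one with Lhx1 itself as the nearest gene.

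Evx1, a homeobox gene of the posterior streak, had a single site, and none at its promoter. The site, 22198 bp upstream of the TSS at 52313498 on chromosome 6 (52291150 to 52291450, intergenic), had 4.41 in WT and 4.14 in DKO EpiLCs, a difference of -0.27. In normalized reads this is 21.3 against 17.6. Evx1 was thus the least covered of the 9 genes in these cells.

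Mesp1 and Mesp2, basic helix-loop-helix factors of nascent cardiac mesoderm and of segmenting somites, lie next to each other in opposite orientation on chromosome 7, Mesp1 on the minus strand from 79792241 to 79793590 and Mesp2 on the plus strand from 79810727 to 79813431. Their promoter sites differed in opposite directions by similar amounts. The Mesp1 site (79793130 to 79793470, over its coding sequence) had 3.89 in WT and 4.24 in DKO EpiLCs, a difference of 0.35. The Mesp2 site (79811070 to 79811370, over its coding sequence) had 4.17 and 3.79, a difference of -0.38. Of sites of like concentration, 18.8% were at least as high as the Mesp1 site and 38.6% at least as low as the Mesp2 site.

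Around the pair, the only site past 1.5-fold was the weakest of the locus in WT EpiLCs. It spans 79786440 to 79786660, 7040 bp downstream of the Mesp1 TSS, and had 2.41 in WT and 3.38 in DKO EpiLCs, or 5.31 and 10.4 reads, a difference of 0.97 that 24.9% of sites of like concentration reached. A site in an intron of Wdr93 and one 7823 bp past the Mesp2 TSS differed by 0.09 and -0.15. For Mesp2 alone the Anpep promoter, 37353 bp downstream, was also within 50 kb and had 5.36 and 5.62. The sums had log2 ratios of 0.06 for Mesp1 and 0.13 for Mesp2, the latter 0.24 in a window of 100 kb, and 76 flanking sites had a median of 0.02.

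**Figure D3:**
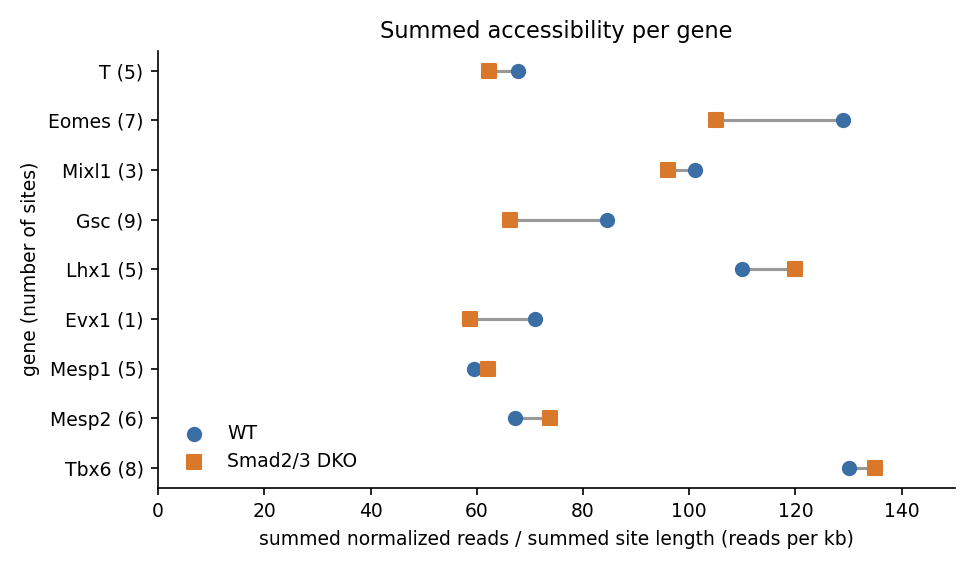
Summed normalized reads divided by the summed length of the sites of each gene (reads per kb, horizontal axis from 0) in WT (circles) and Smad2/3 DKO EpiLCs (squares), with the number of sites in brackets. Eomes goes from 129 to 105 and Gsc from 84.6 to 66.3, the widest gaps, while Lhx1, Mesp1, Mesp2 and Tbx6 are slightly higher in DKO EpiLCs.

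The promoters of these genes were mostly weakly accessible in WT EpiLCs when reads were set against site length. Eomes was the exception, with 171 normalized reads per kb, above 64.8% of the 15001 promoter sites. Gsc followed with 96.9 reads per kb (percentile 31.0) and Mixl1 with 77.1 (percentile 18.8). Mesp2, T, Mesp1 and Lhx1 had 60.0, 55.6, 43.6 and 43.5 reads per kb, which placed them at percentiles 9.44, 7.39, 3.09 and 3.02. Without values per library it cannot be said which neighbours in this order differ beyond their spread. In DKO EpiLCs the levels were 146 at Eomes, 74.5 at Gsc, 78.1 at Mixl1, 46.1 at Mesp2, 71.3 at T, 55.6 at Mesp1 and 58.1 at Lhx1 reads per kb, so T, Mesp1 and Lhx1 were higher and Eomes, Gsc and Mesp2 lower.

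A list of 27 other genes of the streak and mesoderm, among them Wnt and Fgf ligands, Cdx and Fox factors and Notch pathway genes of segmentation, was close to the background. These genes had 151 sites within 50 kb, none shared with the 9 regulators, with a median difference of -0.05. Lower accessibility past 1.5-fold was found at 18 of them (11.9%) and higher at 11 (7.28%), where 12.7% and 7.96% of all sites within 50 kb of a curated TSS were. Centred on the median of all sites, the counts were 15 lower and 16 higher, so the order of the directions depends on the scaling. At the 123 of these that reached a concentration of 4, accessibility was lower past 1.5-fold in 10 cases (8.13%) and higher in 6 (4.88%), where 12.4% and 5.40% of all sites at that level were.

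By size at such concentrations, the largest differences were at Dll1, Ripply2 and Foxc1. A site 37718 bp downstream of Dll1, a Notch ligand, had 5.09 in WT and 3.99 in DKO EpiLCs, a difference of -1.10, though its nearest TSS is that of Gm10510. Ripply2, a transcriptional repressor that acts in somite segmentation, had a site 41867 bp upstream with 4.50 in WT and 3.50 in DKO EpiLCs. Foxc1, a forkhead factor of paraxial mesoderm, had one 13956 bp upstream at -0.99. Higher accessibility was found 24366 bp downstream of Sp8, a zinc finger factor of the caudal embryo, by 0.87, and at the promoter of Msgn1, a presomitic mesoderm factor, by 0.83 (4.71 in WT and 5.54 in DKO EpiLCs). The segmentation clock gene Hes7 had a site 9723 bp upstream that was higher by 0.78. The streak ligand gene Fgf8 had a site 3616 bp upstream at -0.85, nearest to Npm3, though the median over the 5 Fgf8 sites was 0.29. The homeobox gene Nkx1-2 had a site 16893 bp upstream at -0.78, nearest to Lhpp. Lower and higher sites thus occurred side by side among genes of neighbouring function.

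**Figure D4:**
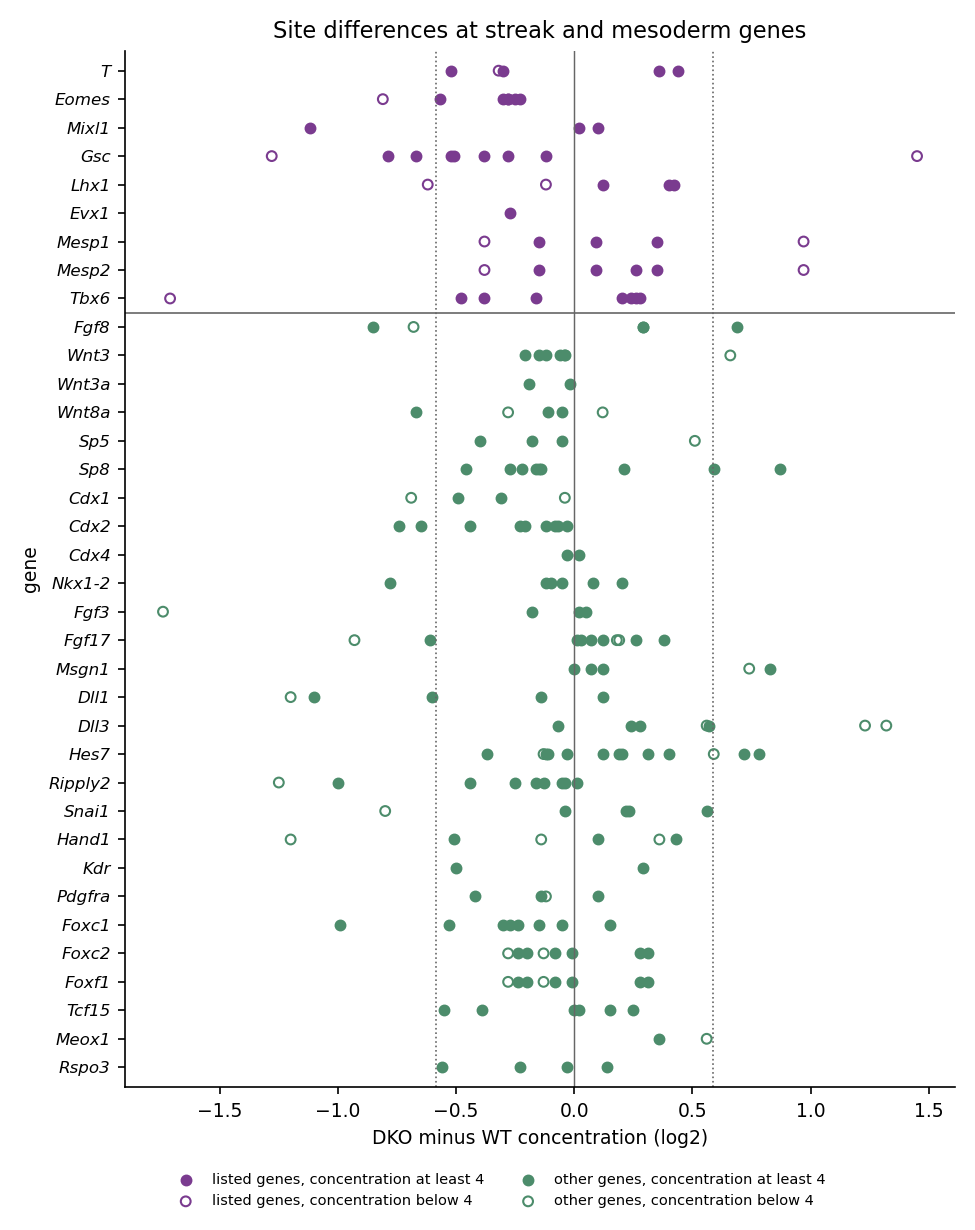
Each point is the DKO minus WT difference (log2, horizontal axis) of 1 site within 50 kb of the gene named on the vertical axis, with the 9 regulators in purple above the line and the 27 other genes in green below it. Filled points have a concentration of at least 4 and open points less, and dotted lines mark 1.5-fold. Eomes is the only regulator with more than 1 site that has all points left of 0, and most points past the dotted lines on the purple rows are open.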

How the data were processed

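ATAC-seq of WT and Smad2/3 DKO EpiLCs was processed by the authors: paired-end reads were aligned to mm10 with bowtie2 without mixed or discordant pairs, non-unique and blacklisted reads were discarded, PCR duplicates were removed with Samtools, and sites were called with DANPOS2 on triplicates against tagmented genomic DNA. The deposited table, made with DiffBind, lists log2 concentrations over both genotypes and for each genotype, the authors' means over 3 libraries. The DiffBind version, its normalization and any shift for the Tn5 cut are not given in the sources used here. Columns with the authors' own fold changes and significance were not used. No value per library was analysed here, so depth is unknown, the count test planned for single libraries was replaced by description, and no p-value or interval is given.

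Sites were joined to 31647 curated TSSs of 26180 genes in RefSeq's GRCm38.p6 (mm10) by their midpoints, and concentrations were turned into reads as powers of the log base with a pseudocount of 0. All listed sites lay inside the mm10 chromosomes on 21 of 21 chromosomes. Site starts are printed as listed and were read as counted from 0 for sequences, which the file does not state. Promoter sequences are from the RefSeq table for 8 of the 9 genes. The sequence of 1 distal site is not reported here. Assignment to genes was tested on simulated data. Analyses used Python 3.11.15, numpy 2.4.6, pandas 2.3.3 and matplotlib 3.10.9.

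Sites named for each gene were the one nearest the TSS, the one of highest WT concentration, the one with the largest difference at a concentration of at least 4 and every site past 1.5-fold. Other sites of the 9 genes were added for completeness. Of other genes, at most 8 sites were named by size. The members, lists and motifs were chosen with earlier results of these data known. Alternatives tried were folds of 1.25 and 2, 8 added reads, a minimum concentration, windows of 25 and 100 kb, assignment to the nearest TSS, predicted TSSs and recentring.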

Additional observations from a re-analysis of the deposited data

How the results depend on the processing

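The values are means over 3 libraries with no spread, and a low concentration gives the widest differences, so large differences at weak sites are the least certain. No paired analysis was possible because the table used holds 1 value per genotype and none per library, and for the same reason no replicate could be left out. Against 7 lower and 2 higher sites at the 9 genes, the smaller of the alternative folds gave 15 and 7, a fold of 2 gave 3 and 1, adding 8 normalized reads gave 2 and 1, and a concentration of at least 4 gave 3 and 0. A window of 25 kb gave 4 lower of 30 sites, a window of 100 kb gave 4 higher of 77, and keeping sites with a listed gene as the nearest gave 3 lower of 25. Against 18 lower and 11 higher sites at the 27 other genes, the smaller fold gave 31 and 21, a fold of 2 gave 5 and 2, adding 8 reads gave 9 and 4, a concentration of at least 4 gave 10 and 6, nearest-gene assignment gave 10 and 6, and 100 kb gave 28 lower. Shares over all sites were not computed for the other folds, added reads, other windows or nearest-gene assignment. Those counts therefore show only how the numbers move with the setting and are not results about these genes. The sign of the summed log2 ratio turned in 5 cases: T went from -0.12 to 0.40 and Mixl1 from -0.08 to 0.02 at 25 kb, and with nearest-gene assignment Mixl1 went to 0.02, Lhx1 from 0.13 to -0.12 and Tbx6 from 0.06 to -0.16. Each of these alternatives leaves out sites by its construction. For Lhx1 it leaves only 1 weak site, and with sites nearest to the antisense Lhx1os kept, chosen after seeing the data, the ratio was 0.14. The median difference over the 9 genes, -0.26, was -0.16 with 100 kb and -0.18 when centred on all sites, and it stayed negative under every alternative run for it, while the sums of Eomes and Gsc kept theirs.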
